A study of Mus musculus with 12 samples.

Results

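The 38 genes described here serve neuron differentiation, the synapse and the making or loading of transmitters, and were given as a fixed list of symbols. All 38 were found among the 24060 gene rows measured in 12 mouse rhabdoid tumors. By role they fell into 7 lists: 8 genes of the synaptic vesicle and the SNARE fusion machinery, 5 neuronal RNA-binding proteins, 7 axon and cytoskeleton genes, 5 genes of transmitter synthesis and loading, 7 genes of glutamate receptors and the postsynaptic side, 3 secretory granule genes and 3 genes of the sympathoadrenal and sensory lineages. The question was which parts of this program were present, and which varied together across tumors and locations.

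All tumors arose in P0-CreC;Smarcb1 flox/flox mice on the FVB/N background, with no other treatment. The Cre transgene is driven by the P0 (myelin protein zero) promoter and acts in the neural crest from embryonic day 9.5 and then in the Schwann cell lineage, where it removes Smarcb1, the gene of a core subunit of the SWI/SNF chromatin remodeling complex. The location labels were retro-orbital (4 tumors), cheek (3 tumors), meninges (3 tumors), vestibular nerve (1 tumor) and trigeminal nerve (1 tumor). Normal tissue was not analysed here, and the age of each mouse is not given in the sources used here. Numbers within a location only name the tumors. Cheek tumor 1 and meninges tumor 1, cheek tumors 2 and 3, and retro-orbital tumor 3 and the trigeminal nerve tumor carry identifiers with the same first part, and whether these pairs came from the same animal is not stated. Cheek tumors 2 and 3 were the most alike, but the fragment numbers of 25 members still differed beyond sampling noise (chi-square 6.76 per degree of freedom, against 65.4 to 590 in the other pairs of 1 location). This does not show that they were separate tumors or animals. They were counted as 2 because the labels list them as 2 samples, and the cheek n of 3 depends on it. Smarcb1 itself was at 1.70 to 6.31 RPKM in all 12 tumors. These were bulk libraries, in which host cells that keep the gene are included. The totals behind the values were 13206168 to 57128403 fragments per tumor (median 27929749), lowest in cheek tumor 3 and highest in retro-orbital tumor 3. RPKM scales a gene's fragments to the length of its transcript and to the fragments of the tumor. Differences are given on the log2(RPKM + 1) scale, on which those of weakly present genes come out too small.

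Neurons store transmitter in small vesicles that fuse with the presynaptic membrane when SNARE proteins on both membranes zip together, a step that synaptotagmins couple to calcium. Peptides and amines of neuroendocrine cells are kept instead in dense-core granules, whose matrix is built by chromogranins and secretogranins. Many genes of both systems are held silent outside the nervous system by the repressor REST, and several of them, SNAP-25 and the granins among them, are also active in endocrine cells, so that single members of the program can be present where neurons are not.

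The program was present in part. Of the 38 members, 28 reached 1 RPKM in at least 3 of the 12 tumors (73.7%, against 62.5% of all gene rows). The other 10 were Syn2, Rbfox3, Elavl3, Elavl4, Dcx, Slc17a6, Slc32a1, Grin1, Th and Dbh. Of these, 9 reached 1 RPKM in 1 or 2 tumors, and Dcx, a microtubule protein of migrating young neurons, in none (lowest 0 RPKM in retro-orbital tumor 2, median 0.0522 RPKM, highest 0.254 RPKM in the vestibular nerve tumor). At the other end, 5 members were at 1 RPKM or more in all 12 tumors (Snap25, Stx1a, Vamp2, Stmn2 and Dlg4), and 12 members reached 10 RPKM in at least 1 tumor. The members varied more across tumors than most genes: the median SD of log2(RPKM + 1) was 0.845 over the 28 members that passed and 0.478 over all 15043 gene rows that passed.

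**Figure D1:**
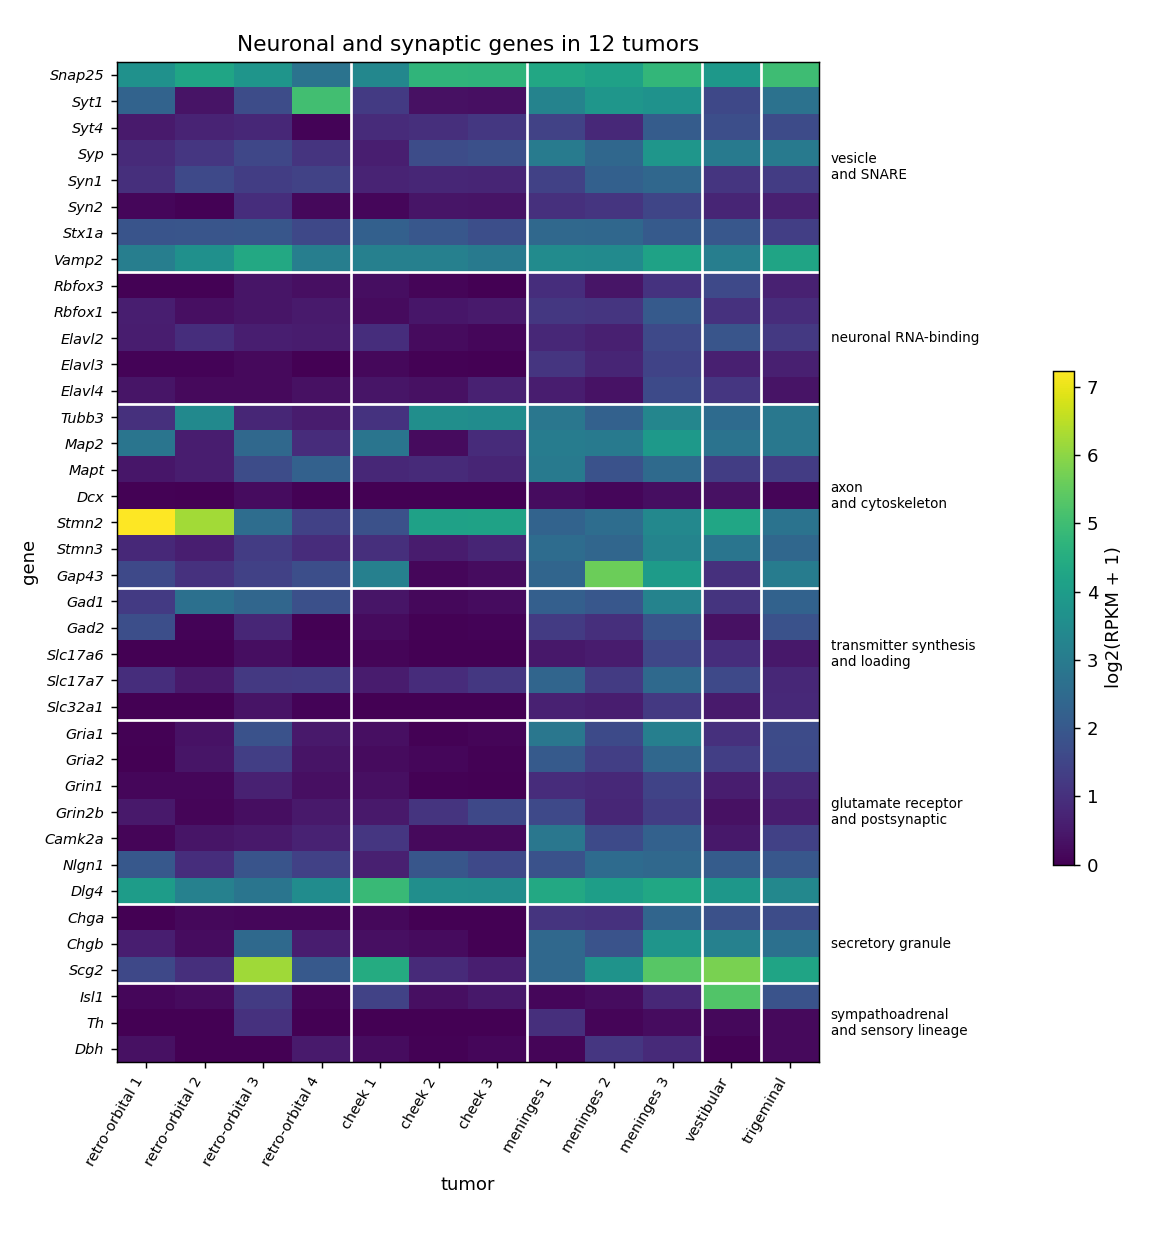
Each row is 1 of the 38 members, grouped by role list, and each column 1 of the 12 tumors, grouped by location. The color gives log2(RPKM + 1). The meninges, vestibular nerve and trigeminal nerve columns and retro-orbital tumor 3 hold 21 to 34 members at 1 RPKM or more, the other 6 columns 9 to 14.

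The number of members at 1 RPKM or more differed widely between tumors. The 4 retro-orbital tumors held 13, 10, 21 and 14 such members, the 3 cheek tumors 12, 9 and 11, and the 3 meninges tumors 27, 25 and 34. The vestibular nerve tumor held 27 and the trigeminal nerve tumor 25. Retro-orbital tumor 3 thus stood apart from the other retro-orbital tumors, and meninges tumor 3 had the most members of any tumor. The highest value of a member lay in a meninges tumor for 26 of the 38 members, 19 of them in meninges tumor 3. It lay in a retro-orbital tumor for 5 members, in the vestibular nerve tumor for 4, in a cheek tumor for 2 and in the trigeminal nerve tumor for 1. Of the 3 location means, that of the meninges was the highest for 36 of the 38 members. The exceptions were Stmn2, highest in the retro-orbital tumors, and Isl1, highest in the cheek tumors. The cheek mean was the lowest for 27 members. The counts of highest and lowest places were not made over all genes.

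Among the vesicle and SNARE genes, the 3 members of the fusion machinery itself were the most widely present. Snap25, a SNARE of the presynaptic membrane, had the highest median of all members (17.4 RPKM). It was at 11.6, 18.3, 12.8 and 5.82 RPKM in the retro-orbital tumors, at 9.12, 25.5 and 25.4 RPKM in the cheek tumors, at 19.2, 16.6 and 26.9 RPKM in the meninges tumors, at 13.5 RPKM in the vestibular nerve tumor and at 30.9 RPKM in the trigeminal nerve tumor. These values overlapped between all locations. Vamp2, the SNARE of the vesicle membrane, had a median of 8.95 RPKM. It was at 7.63, 11.4, 19.7 and 7.53 RPKM in the retro-orbital tumors, at 7.87, 7.88 and 6.86 RPKM in the cheek tumors, at 10.3, 10.03 and 17.2 RPKM in the meninges tumors, and at 7.48 and 17.7 RPKM in the vestibular and trigeminal nerve tumors, so that retro-orbital tumor 3 was the highest and the cheek values lay within a narrow range. Stx1a, the syntaxin that pairs with both, ranged more narrowly, from 1.53 RPKM in the trigeminal nerve tumor to 4.48 RPKM in meninges tumor 1. The range of the vesicle's own proteins was wider. Syt1, the calcium sensor of fast release, was at 3.98, 0.303, 2.20 and 32.0 RPKM in the retro-orbital tumors, at 1.32, 0.242 and 0.220 RPKM in the cheek tumors, at 8.36, 12.9 and 11.9 RPKM in the meninges tumors, and at 1.96 and 5.61 RPKM in the vestibular and trigeminal nerve tumors. Its cheek and meninges values did not overlap, while the retro-orbital values spanned nearly the whole range, and retro-orbital tumor 4 held the highest value. Its mean was 9.61 ± 15 RPKM (SD, n = 4) in the retro-orbital tumors, 0.595 ± 0.632 (n = 3) in the cheek tumors and 11.0 ± 2.38 (n = 3) in the meninges tumors. Syp, synaptophysin of the vesicle membrane, was at 0.803, 1.19, 1.88 and 1.12 RPKM in the retro-orbital tumors, at 0.512, 2.20 and 2.38 RPKM in the cheek tumors, at 7.12, 4.32 and 12.9 RPKM in the meninges tumors, and at 6.89 and 6.95 RPKM in the vestibular and trigeminal nerve tumors. All 5 tumors of the meninges and of the vestibular and trigeminal nerves thus lay above the other 7. Syn1, a synapsin that tethers vesicles, lay between 0.648 and 4.34 RPKM and was lowest in the 3 cheek tumors. Syt4, a further synaptotagmin, reached 3.28 RPKM, and Syn2 1.84 RPKM, both in meninges tumor 3.

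The neuronal RNA-binding genes were low throughout. Rbfox1, a splicing regulator, had the highest value of the list. It was at 0.532, 0.217, 0.339 and 0.434 RPKM in the retro-orbital tumors, at 0.167, 0.347 and 0.442 RPKM in the cheek tumors, at 1.27, 1.19 and 3.16 RPKM in the meninges tumors, and at 1.05 and 0.905 RPKM in the vestibular and trigeminal nerve tumors. Rbfox3, the gene of the neuronal nuclear antigen NeuN, reached its highest value, 2.04 RPKM, in the vestibular nerve tumor, and Elavl2, an RNA-binding protein of the Hu family, was also highest there (2.77 RPKM). Its relatives Elavl3 and Elavl4 were highest in meninges tumor 3, at 1.72 and 2.10 RPKM. No retro-orbital or cheek tumor reached 1 RPKM for any of these 5 genes.

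The axon and cytoskeleton genes did not move as 1 group. Stmn2, a stathmin that binds tubulin in growing axons, had the highest value of all 38 members. It was at 150.3, 74.3, 5.06 and 1.64 RPKM in the retro-orbital tumors, at 2.50, 16.8 and 17.1 RPKM in the cheek tumors, at 3.99, 5.05 and 9.47 RPKM in the meninges tumors, at 18.5 RPKM in the vestibular nerve tumor and at 5.75 RPKM in the trigeminal nerve tumor. Retro-orbital tumors 1 and 2, which held few other members, were the highest, and the other retro-orbital values overlapped both other locations. Stmn3, a related stathmin, was at 0.780, 0.539, 1.42 and 0.875 RPKM in the retro-orbital tumors, at 0.963, 0.459 and 0.667 RPKM in the cheek tumors, at 4.93, 4.22 and 8.70 RPKM in the meninges tumors, at 6.07 RPKM in the vestibular nerve tumor and at 4.32 RPKM in the trigeminal nerve tumor. Its values thus parted the tumors like those of Syp, with none of the 7 lower tumors above 1.42 RPKM. Gap43, a growth cone protein, was at 2.04, 1.05, 1.65 and 2.33 RPKM in the retro-orbital tumors, at 7.97, 0.0942 and 0.175 RPKM in the cheek tumors, at 4.13, 47.6 and 14.6 RPKM in the meninges tumors, and at 1.0 and 7.30 RPKM in the vestibular and trigeminal nerve tumors. Cheek tumor 1 lay inside the meninges range and far above the other cheek tumors. Tubb3, the neuronal class of beta-tubulin, followed another order. It was at 1.01, 9.87, 0.721 and 0.465 RPKM in the retro-orbital tumors, at 1.09, 10.9 and 10.5 RPKM in the cheek tumors, at 6.37, 3.73 and 9.00 RPKM in the meninges tumors, and at 4.76 and 6.52 RPKM in the vestibular and trigeminal nerve tumors. The highest 3 values came from tumors with few other members. Map2, a microtubule protein of dendrites, was at 6.05, 0.493, 4.46 and 0.896 RPKM in the retro-orbital tumors, at 5.99, 0.155 and 0.851 RPKM in the cheek tumors, at 7.25, 6.81 and 14.1 RPKM in the meninges tumors, and at 5.80 and 6.48 RPKM in the vestibular and trigeminal nerve tumors, so that retro-orbital tumors 1 and 3 and cheek tumor 1 stood apart from the rest of their locations. Mapt, the tau protein of axons, ranged from 0.357 to 6.82 RPKM and was highest in meninges tumor 1.

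Genes for making or loading transmitter were at single-digit RPKM at most. Gad1, which makes GABA from glutamate, was at 1.36, 5.34, 4.20 and 2.43 RPKM in the retro-orbital tumors, at 0.317, 0.104 and 0.187 RPKM in the cheek tumors, at 3.59, 2.88 and 8.47 RPKM in the meninges tumors, and at 1.12 and 3.83 RPKM in the vestibular and trigeminal nerve tumors. The cheek tumors lay below every other tumor. Its partner enzyme Gad2 reached 2.68 RPKM in meninges tumor 3, 2.53 RPKM in the trigeminal nerve tumor and 2.34 RPKM in retro-orbital tumor 1. Slc32a1, the transporter that loads GABA into vesicles, was listed at 0 in all 3 cheek tumors, where 3 fragments would be worth 0.0328 to 0.0810 RPKM, and reached 1.28 RPKM in meninges tumor 3. Of the vesicular glutamate transporters, Slc17a7 lay between 0.417 and 4.51 RPKM and Slc17a6 at 1.91 RPKM or less, both highest in meninges tumor 3.

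On the receiving side, Dlg4, the scaffold PSD-95, was the most abundant, with a median of 12.0 RPKM. It was at 15.2, 8.03, 5.97 and 10.6 RPKM in the retro-orbital tumors, at 28.8, 10.8 and 10.7 RPKM in the cheek tumors, at 19.6, 15.7 and 18.9 RPKM in the meninges tumors, at 13.2 RPKM in the vestibular nerve tumor and at 9.41 RPKM in the trigeminal nerve tumor, and cheek tumor 1 was the highest. The receptor subunits were lower and more uneven. Gria1, an AMPA receptor subunit, was at 0.0309, 0.267, 2.51 and 0.398 RPKM in the retro-orbital tumors, at 0.230, 0.0308 and 0.0760 RPKM in the cheek tumors, at 6.30, 2.11 and 7.65 RPKM in the meninges tumors, and at 1.0 and 2.16 RPKM in the vestibular and trigeminal nerve tumors. Gria2, the subunit that makes these receptors impermeable to calcium, was at 0.00476, 0.338, 1.55 and 0.313 RPKM in the retro-orbital tumors, at 0.155, 0.0870 and 0.0293 RPKM in the cheek tumors, at 3.11, 1.56 and 4.37 RPKM in the meninges tumors, and at 1.52 and 2.09 RPKM in the vestibular and trigeminal nerve tumors. For both genes retro-orbital tumor 3 was the only retro-orbital tumor at 1 RPKM or more, and no cheek tumor was. Camk2a, a kinase of the postsynaptic density, reached 6.29 RPKM in meninges tumor 1 and was at 1.22 RPKM or less in all retro-orbital and cheek tumors. The NMDA receptor subunits Grin1 and Grin2b stayed at 1.73 and 2.02 RPKM or less, and Nlgn1, an adhesion protein of the postsynaptic membrane, ranged from 0.566 to 4.80 RPKM.

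The secretory granule genes ranged from 0 to 73.2 RPKM. Chga, chromogranin A, was at 0.0196, 0.108, 0.0837 and 0.0902 RPKM in the retro-orbital tumors, at 0.112, 0 and 0 RPKM in the cheek tumors, at 1.14, 1.03 and 4.12 RPKM in the meninges tumors, and at 2.51 and 2.18 RPKM in the vestibular and trigeminal nerve tumors. Chgb, chromogranin B, was at 0.527, 0.187, 4.53 and 0.488 RPKM in the retro-orbital tumors, at 0.219, 0.168 and 0 RPKM in the cheek tumors, at 4.50, 2.63 and 12.7 RPKM in the meninges tumors, and at 8.06 and 5.41 RPKM in the vestibular and trigeminal nerve tumors. Scg2, secretogranin II, was at 1.95, 0.972, 73.2 and 3.09 RPKM in the retro-orbital tumors, at 21, 0.826 and 0.518 RPKM in the cheek tumors, at 4.40, 12.2 and 40.2 RPKM in the meninges tumors, and at 54.1 and 17.7 RPKM in the vestibular and trigeminal nerve tumors. Retro-orbital tumor 3, with the highest Scg2 of all, had Chgb inside the meninges range but Chga at 0.0837 RPKM, worth about 9 fragments. In cheek tumor 1, Scg2 was high while both chromogranins were at or below 0.219 RPKM.

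Chgb varied together with Chga (rho = 0.809) and with Scg2 (rho = 0.825), while Chga and Scg2 were less alike (rho = 0.662). The 8-base cAMP response element TGACGTCA, or its 6-base core TGACGT, lay within 100 bases of the start of each gene. For both reasons the promoters of these 3 genes are shown. They are the 250 bases before the start of transcription in RefSeq (GRCm38.p6, the build of the mm10 alignment), 5′ to 3′ on the strand of the gene, at chr12:102554691-102554940 (plus strand) for Chga, chr2:132781392-132781641 (plus strand) for Chgb and chr1:79440027-79440276 (minus strand) for Scg2. In GENCODE M21 the Chgb window lies inside the gene, whose earliest start is farther upstream, and the start of Scg2 lies inside its window, so that the element marked there is within the GENCODE gene. Capitals mark the element or its core.
Chga: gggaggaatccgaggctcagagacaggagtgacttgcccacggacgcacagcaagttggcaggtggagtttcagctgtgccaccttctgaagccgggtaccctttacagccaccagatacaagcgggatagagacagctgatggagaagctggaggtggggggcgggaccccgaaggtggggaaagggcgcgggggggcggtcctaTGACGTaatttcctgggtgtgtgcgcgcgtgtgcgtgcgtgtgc
Chgb: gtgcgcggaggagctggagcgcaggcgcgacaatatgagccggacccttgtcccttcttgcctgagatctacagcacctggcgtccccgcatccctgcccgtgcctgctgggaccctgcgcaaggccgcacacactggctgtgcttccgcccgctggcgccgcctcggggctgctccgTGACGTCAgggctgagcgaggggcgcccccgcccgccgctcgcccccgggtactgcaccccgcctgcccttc
Scg2: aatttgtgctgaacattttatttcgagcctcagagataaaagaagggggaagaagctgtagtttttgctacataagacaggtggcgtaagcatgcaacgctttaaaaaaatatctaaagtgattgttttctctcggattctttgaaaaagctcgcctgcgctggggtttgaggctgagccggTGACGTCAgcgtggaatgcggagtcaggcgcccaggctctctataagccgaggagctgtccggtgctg
The element began 72 bases before the start of Chgb and 68 bases before that of Scg2, and the core 44 bases before that of Chga. Searched on both strands of such windows, the full element was found for 4 of the 29 members with a window (Syn1, Chgb, Scg2 and Th, 13.8%) and for 1.77% of 27025 genes. The core, which the full element contains, was found for 7 members (24.1%, with Elavl4, Chga and Isl1 added) and for 7.29% of genes. The left part of the RE1 site that REST binds, TCAGCACC, was found for Syn1, Tubb3 and Nlgn1 (10.3%) and for 1.49% of genes. A match is a description of the letters only.

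The lineage genes were each high in few tumors. Isl1, a LIM-homeodomain factor of sensory, sympathetic and motor neurons, was at 0.102, 0.162, 1.41 and 0.0672 RPKM in the retro-orbital tumors, at 1.68, 0.218 and 0.390 RPKM in the cheek tumors, at 0.101, 0.181 and 0.756 RPKM in the meninges tumors, at 37.4 RPKM in the vestibular nerve tumor and at 2.62 RPKM in the trigeminal nerve tumor. The vestibular nerve tumor stood far above the other 11. Th and Dbh, which act in sequence to make noradrenaline, were not high in the same tumors. Th was at 1.04 RPKM in retro-orbital tumor 3 and 0.972 RPKM in meninges tumor 1, and at 0.192 RPKM or less elsewhere, while Dbh was at 1.22 RPKM in meninges tumor 2 and 0.812 RPKM in meninges tumor 3.

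To ask whether the members differed between locations, limma was fitted to log2(RPKM + 1) of the 10 tumors of the 3 locations with replicates, over 14745 genes at 1 RPKM or more in at least 3 of them. The fit tested 26 members, and a filter of this kind favors members that are high in 1 location. With Benjamini-Hochberg adjustment over all genes, none of the 26 members passed at 0.05. In the F test over the locations 0 members were called (0.0407% of all genes were), and 15 of 26 had an unadjusted p under 0.05 (14.3% of all genes). Between meninges and retro-orbital tumors 0 members were called (0.0203% of genes). At an unadjusted p under 0.05, 15 members were higher in the meninges (6.61% of genes) and 0 were lower (2.54%). Between cheek and retro-orbital tumors 0 members were called (0.0271%), and at an unadjusted p under 0.05 there were 0 members higher in the cheek (5.52%) and 1 member lower, Gad1 (6.45%). Between meninges and cheek tumors 0 members were called (0.0475%), and at an unadjusted p under 0.05 there were 16 members higher in the meninges (11.6%) and 0 lower (5.37%).

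The median log2 difference of the 26 members was 1.10 for meninges minus retro-orbital (0.13 over all genes). It was 1.35 for meninges minus cheek (0.16 over all genes). In each, 25 of 26 members were above 0, beside 9401 and 9123 of the 14745 genes. For cheek minus retro-orbital the median was -0.21 (-0.02 over all genes), with 8 of 26 members and 7161 of 14745 genes above 0. Of the 26, Rbfox1 and Chga passed the filter only through the meninges tumors, and the counts and medians of tested members are given as a description. With no filter, over all 38 members, the median log2 differences were 0.88, 0.93 and -0.11 in the same order (0.08, 0.08 and 0 over all genes), with 36, 36 and 10 of 38 above 0. The number of all genes above 0 was not counted without a filter. The comparisons share tumors and are not independent. The member with the smallest adjusted p was Stmn3, with a log2 difference of 1.83 ± 0.30 (SE) from the retro-orbital tumors (limma, adjusted p = 0.127, range over alternatives 0.0465 to 0.977) and of 1.99 ± 0.32 from the cheek tumors (adjusted p = 0.0783, range 0.0244 to 0.626). Without retro-orbital tumor 3, both differences of Stmn3 and that of Gria1 between meninges and cheek passed 0.05, and without cheek tumor 1 those of Stmn3, Gap43 and Camk2a between meninges and cheek did. Stmn3 and Gria1 in the former fit and Camk2a in the latter met the filter through the meninges tumors alone, so these passes add no support. Over all genes, 65 were called between meninges and cheek in the former fit and 527 in the latter, against 7 with all 10 tumors. Gad1 and Gria1 differed between meninges and cheek by 2.20 ± 0.45 (adjusted p = 0.107) and 2.39 ± 0.52 (adjusted p = 0.111), and Gria2 by 1.82 ± 0.40 (adjusted p = 0.113). The largest location difference of any tested member, 2.96 ± 0.95 for Syt1 between meninges and cheek, had an adjusted p of 0.205, and that of Gap43, 2.80 ± 0.92, one of 0.212.

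**Figure D2:**
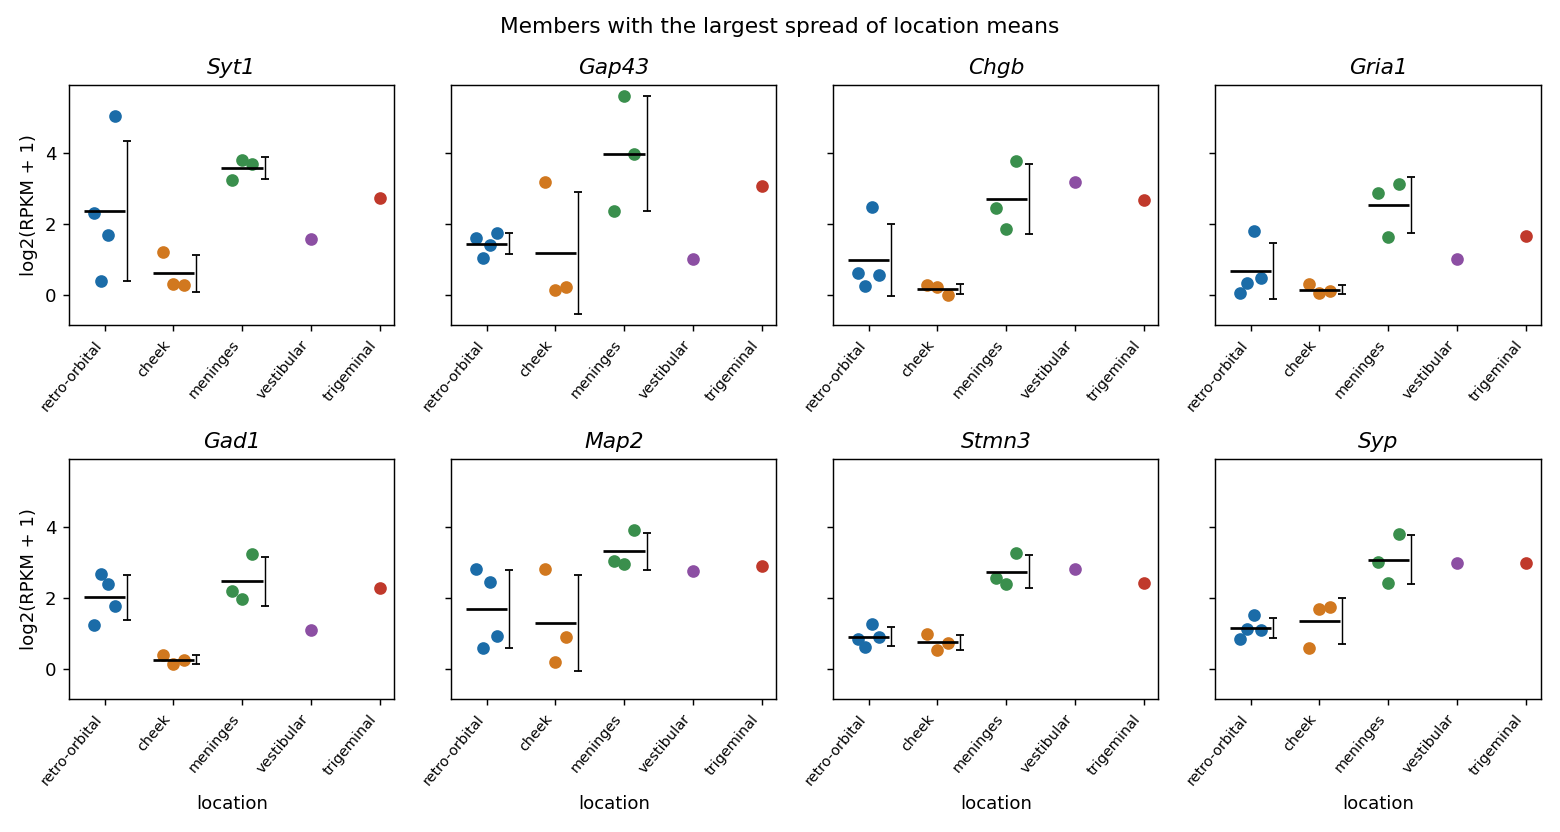
The 8 members with the largest spread of location means, with log2(RPKM + 1) on the vertical axis and location on the horizontal axis. Each point is 1 tumor, the horizontal bar the mean and the bracket 1 SD on each side of it (n = 4 retro-orbital, 3 cheek, 3 meninges). For Stmn3 the 3 meninges tumors lie at 4.22 to 8.70 RPKM, above all 7 retro-orbital and cheek tumors, while Syt1 has its highest value, 32.0 RPKM, in a retro-orbital tumor.

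Counted without a model over all 38 members, the values of 19 members in the meninges tumors all lay above those in the retro-orbital tumors (7.09% of the 22520 genes not at 0 throughout the 10 tumors), and 0 members had the opposite order (1.69%). The 19 included 3 glutamate receptor genes (Gria2, Grin1 and Grin2b), Camk2a and Dlg4, 3 transporters (Slc17a6, Slc17a7 and Slc32a1), 3 RNA-binding genes (Rbfox1, Rbfox3 and Elavl3), Stmn3, Map2, Gap43, Syp, Syt4, Syn2, Stx1a and Chga. For meninges above cheek the count was 24 members (16.9%), with all 5 transmitter genes and both chromogranins among them, and 0 members had the opposite order (6.93%). Cheek values all lay above retro-orbital values for 2 members, Syt4 and Grin2b (4.75%), and below them for 2, Syn1 and Gad1 (3.97%). Without retro-orbital tumor 3 the count for meninges above retro-orbital was 24. Without cheek tumor 1, 9 members were lower in the cheek than in the retro-orbital tumors, 5 were higher, 29 were lower in the cheek than in the meninges and 2 were higher. Without meninges tumor 3, 1 was higher in the cheek than in the meninges. Without retro-orbital tumor 1 or 2, 4 or 5 were lower in the cheek than in the retro-orbital tumors. Leaving out a tumor can only keep or raise such a count, whichever genes are counted. The share over all genes was not counted for these smaller sets, so their counts are no result about the members.

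Across the 12 tumors, the 28 members that passed formed 378 pairs. Their values ranked the tumors alike (Spearman rho of at least 0.7) in 49 pairs, 13.0%, against 3.06% of all pairs of genes that passed. The median rho was 0.40, and 59 pairs were negative. All correlations over pairs are given as a description: the pairs share the same 12 tumors, libraries and scaling. Within a role list 9 of 58 pairs (15.5%) reached 0.7, and between lists 40 of 320 (12.5%) did. The granule list was the most coherent, with 2 of its 3 pairs at 0.7 or more and a median of 0.81. Pairs of an RNA-binding and a granule gene (2 of 6, 33.3%), of a granule and an axon gene (5 of 18, 27.8%), of a granule and a glutamate receptor or postsynaptic gene (5 of 18, 27.8%), of an RNA-binding and an axon gene (3 of 12, 25%) and of an axon and a glutamate receptor or postsynaptic gene (8 of 36, 22.2%) followed, while 0 of 21 pairs of a vesicle and a granule gene reached it. Within the axon list the median rho was -0.22. Over the 10 tumors of the 3 replicated locations 24.3% of member pairs had a Pearson r of at least 0.7 (4.54% of all pairs), and 7.38% did after each location's mean was subtracted (6.08% of all pairs), an alternative chosen after the data were seen.

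**Figure D3:**
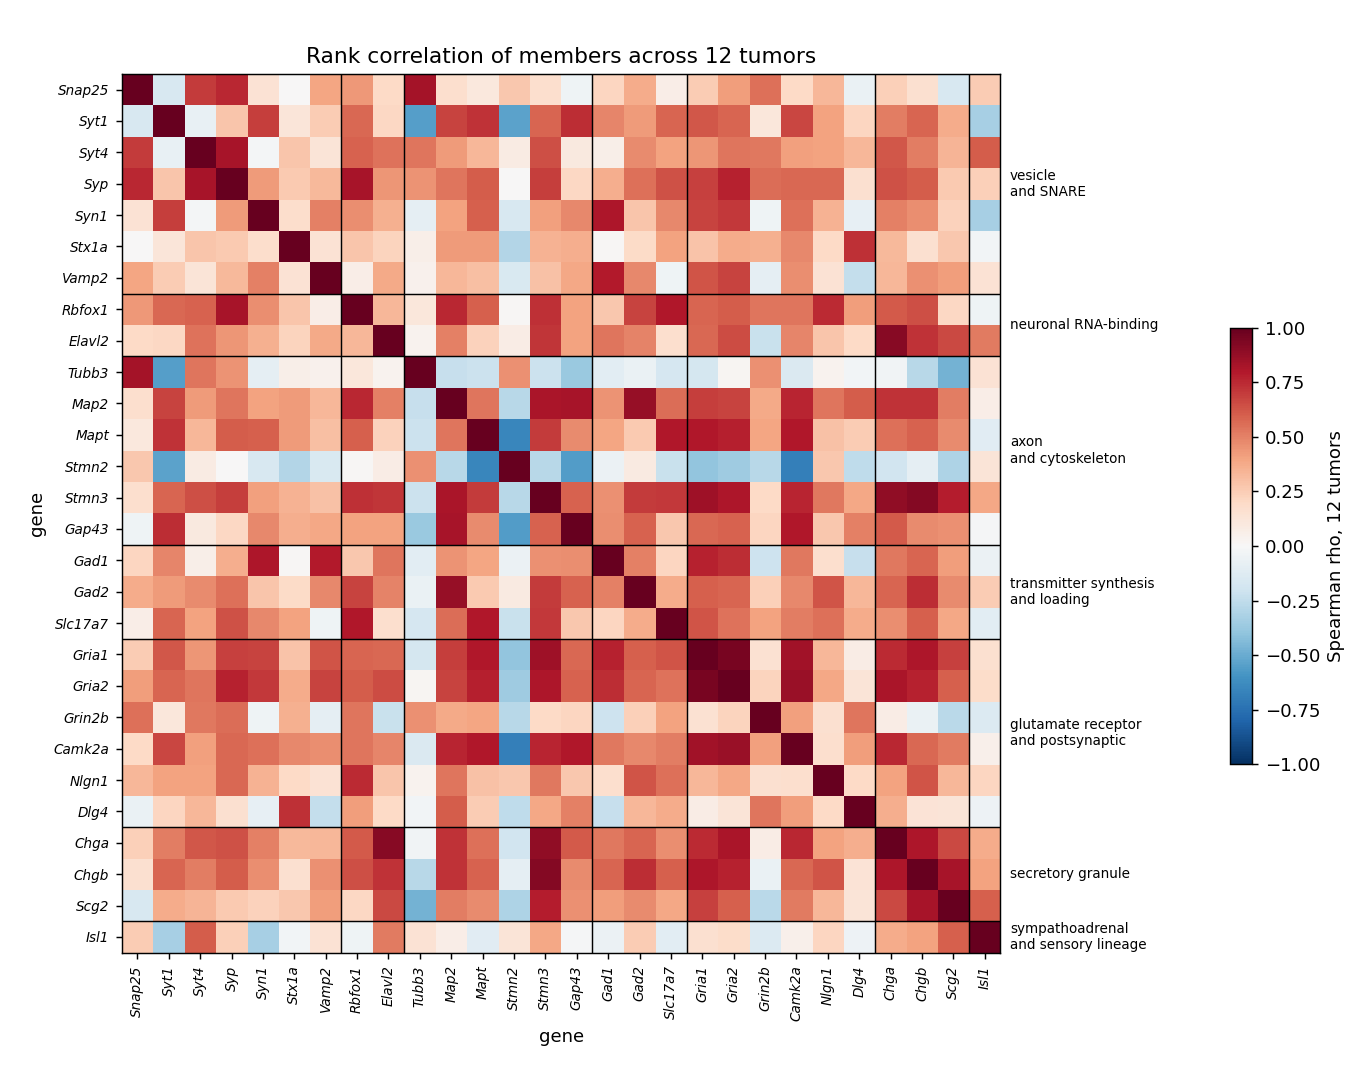
Spearman rho over 12 tumors for each pair of the 28 members that passed, with genes on both axes in the order of the role lists and color from -1 (blue) to 1 (red). The rows of Stmn3, Gria1, Gria2, Camk2a, Chga and Chgb are mostly red, and those of Tubb3 and Stmn2 hold 15 and 18 negative values.

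One set of members shared most of the close pairs. Stmn3 had 10 partners at a rho of 0.7 or more and ranked the tumors most like Chgb (0.92). Gria2 had 9 partners, Chgb 8, and Map2, Gria1, Camk2a and Chga 7 each. Some close pairs crossed role lists, as with Elavl2 and Chga (0.91) or Map2 and Gad2 (0.87), and others stayed within 1 list, as with Gria1 and Gria2 (0.95) or Camk2a and Gria2 (0.87). A second pattern was that of Tubb3, whose only close partner was Snap25 (0.83) and which was negative with 15 other members. Another was that of Stmn2, with 0 partners at 0.7 and 18 negative values, the lowest with Camk2a (-0.69). Grin2b and Isl1 also had 0 partners. Smaller groups joined Syn1 and Gad1 (0.81), Vamp2 and Gad1 (0.79), Syp and Rbfox1 (0.83), and Stx1a and Dlg4 (0.73).

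For 16 pairs of paralogs or functional partners, Pearson's r and Spearman's rho on log2(RPKM + 1) were tested by permutation (100000 resamples, two-sided) and adjusted over the 16 pairs. By rho 3 pairs passed 0.05, and by r 7 pairs did. The AMPA receptor subunits Gria1 and Gria2 were the closest, with r = 0.972 (permutation p = 1e-05, the smallest the resamples can give, adjusted p = 0.00016) and rho = 0.951 (p = 3e-05, adjusted p = 0.00048). Without meninges tumors 1 and 3, the farthest from the median of Gria1, r was 0.957. Chga and Chgb had r = 0.888 (p = 0.00029, adjusted p = 0.00232) and rho = 0.809 (p = 0.00204, adjusted p = 0.0109), and r = 0.779 without the 2 tumors farthest from the median. Chgb and Scg2 had r = 0.784 (p = 0.00498, adjusted p = 0.0266) and rho = 0.825 (p = 0.00165, adjusted p = 0.0109), and r = 0.683 without the farthest 2. The rho of Chga and Chgb no longer passed without cheek tumor 2, cheek tumor 3, meninges tumor 3 or the vestibular nerve tumor (0.752 to 0.755), and that of Chgb and Scg2 without cheek tumor 2 or cheek tumor 3 (0.773). The other 4 pairs past the threshold by r were Syn1 and Syn2, Elavl3 and Elavl4, Rbfox1 and Rbfox3, and Slc17a6 and Slc17a7, at 0.695 to 0.736. Their rho did not pass (adjusted p = 0.216, 0.267, 0.1002 and 0.124 in the same order, by permutation), and without the 2 farthest tumors r was 0.222, 0.383, 0.645 and 0.476 and rho 0.09, 0.15, 0.45 and 0.36. With the location means subtracted, over 10 tumors, r was 0.298, 0.772, 0.421 and 0.409.

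**Figure D4:**
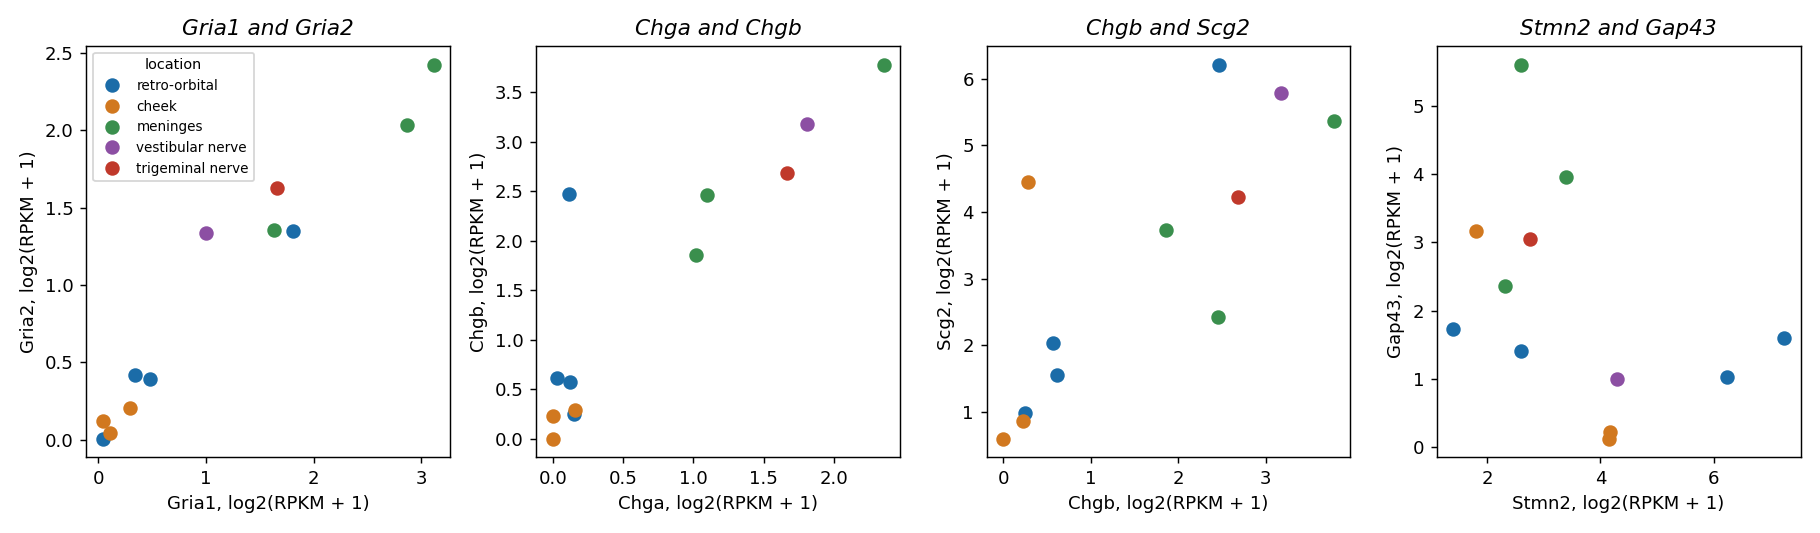
Each panel plots log2(RPKM + 1) of 1 gene against another, with 1 point per tumor (n = 12) colored by location. Gria1 and Gria2 lie along 1 line (rho = 0.951), and retro-orbital tumor 3 has high Chgb but low Chga. The rho of Stmn2 and Gap43 was negative but did not pass (-0.559, permutation adjusted p = 0.171).

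Other partners did not vary together. Stmn2 and Gap43, both of growing axons, had rho = -0.559 (permutation adjusted p = 0.171) and r = -0.419 (adjusted p = 0.281). Tubb3 and Dcx had rho = -0.315 (adjusted p = 0.425) and r = 0.03 (adjusted p = 0.931), and Th and Dbh rho = -0.171 (adjusted p = 0.649). Snap25 and Syt1, which act in the same fusion step, had rho = -0.161 (adjusted p = 0.649) and r = -0.320 (adjusted p = 0.451). Within locations, by r over 10 tumors with the means subtracted, Gria1 and Gria2 stood at 0.982, Chgb and Scg2 at 0.784, Chga and Chgb at 0.602 and Snap25 and Syt1 at -0.785.

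Markers of other cell types moved with the members. The summed RPKM of 8 astrocyte markers (Gfap and Aqp4 the leading ones) was 3.31 to 370.6 in the retro-orbital tumors, highest in tumor 3, 5.99 to 34.3 in the cheek tumors, 195.0 to 519.3 in the meninges tumors, 128.7 in the vestibular nerve tumor and 172.1 in the trigeminal nerve tumor. All 8 reached 1 RPKM in at least 3 tumors. The 10 oligodendrocyte markers summed to 16.7 to 43.3, 15.7 to 19.2, 83.6 to 143.1, 62.3 and 30.6 in the same order, with 9 of 10 at 1 RPKM in at least 3 tumors and the tenth, Olig2, at 0.968 RPKM or less. The 6 tumors with 21 or more members at 1 RPKM were the 6 with the highest astrocyte sums. Of the 38 members, 17 had a rho of at least 0.7 with the astrocyte sum and 15 with the oligodendrocyte sum. These counts include members under the 1 RPKM filter. No share over all genes was counted without that filter, so they are no result about the members. Over the 28 that passed the counts were 9 and 7, with median rho of 0.59 and 0.53. Of all genes that passed, 8.87% and 3.54% reached 0.7, with medians of 0.20 and 0.17. Gria1 (0.97), Gria2 (0.94) and Grin1 (0.92) were closest to the astrocyte sum. Camk2a (0.89), Stmn3 (0.85), Chgb (0.76) and Scg2 (0.73) were also past 0.7, while Tubb3 (-0.15), Stmn2 (-0.49), Snap25 (0.23) and Dlg4 (0.23) did not follow it. In bulk RNA, more cells of a type and more RNA per cell cannot be told apart, and the part of the cells with these markers in the members' values was not tested.

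**Figure D5:**
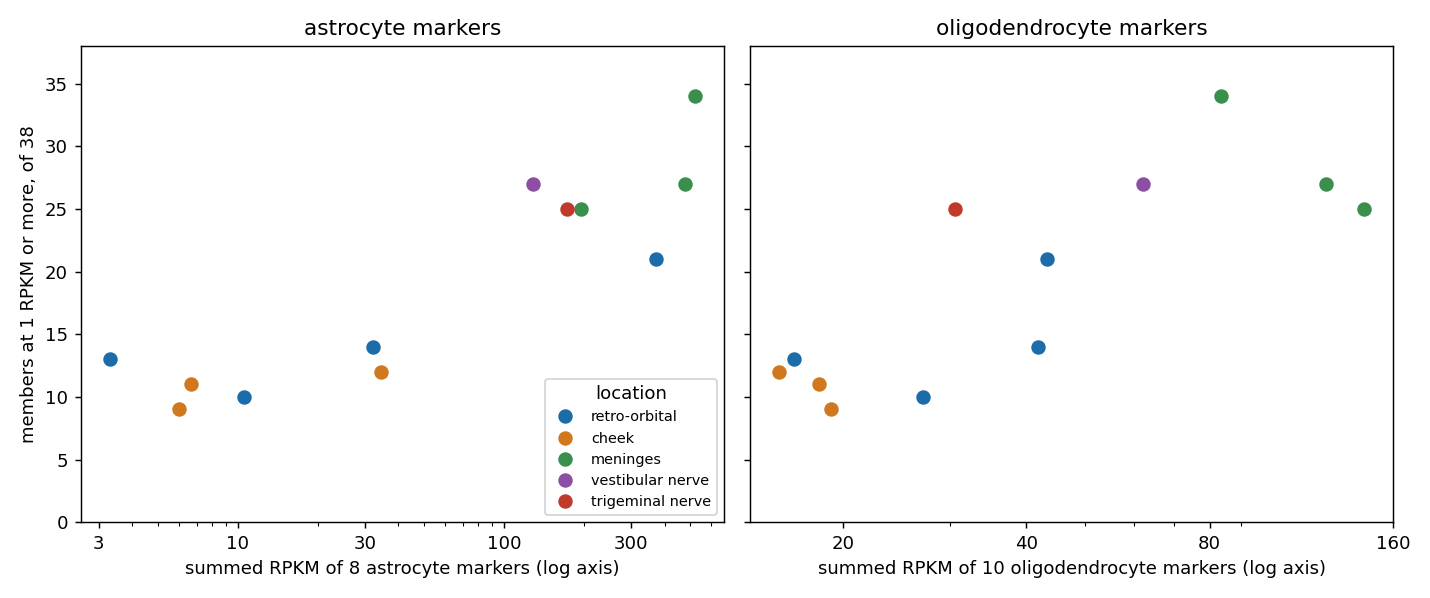
The number of members at 1 RPKM or more (vertical axis, of 38) against the summed RPKM of 8 astrocyte markers (left) and 10 oligodendrocyte markers (right), on log axes, with 1 point per tumor colored by location. The 6 tumors with 21 or more members all have an astrocyte sum of 128.7 or more, and the other 6 tumors one of 34.3 or less.

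The 10 Schwann cell markers, the lineage that P0-CreC also targets, summed to 38.4 to 150.6 RPKM in the retro-orbital, 41.6 to 47.2 in the cheek and 118.7 to 203.9 in the meninges tumors, with 122.7 in the vestibular and 86.8 in the trigeminal nerve tumor. With the skeletal muscle sum and the sensory neuron sum, 0 members had a rho of 0.7 or more (0.332% and 0.292% of all genes that passed). With the leukocyte sum 1 did, Syn1 (0.82), against 2.77% of genes. These counts are near the shares over all genes and are no result about the members. Over the 28 members that passed, the median rho was -0.182 (muscle), 0.248 (sensory neuron) and 0.0839 (leukocyte). Over all genes it was -0.0629, -0.042 and -0.035. The members' medians were below those with the astrocyte and oligodendrocyte sums. The 14 sensory neuron markers summed to 13.8 to 49.6 RPKM in the retro-orbital, 13.3 to 25.7 in the cheek and 17.5 to 85.7 in the meninges tumors, with 25.6 in the vestibular and 55.8 in the trigeminal nerve tumor, and 6 of the 14 reached 1 RPKM in at least 3 tumors. These 6 reached 41.9 RPKM (Calca, trigeminal nerve tumor), 70.8 RPKM (Tac1, meninges tumor 2), 22 and 12.9 RPKM (Runx1 and Avil, retro-orbital tumor 3), 19.8 RPKM (Prph, retro-orbital tumor 2) and 18 RPKM (Isl2, cheek tumor 2). In contrast, Scn10a, a sodium channel of pain-sensing neurons, was at 0.0700 RPKM or less in all 12 tumors, Pirt at 0.152, Trpv1 at 0.356 and Pou4f1, a sensory neuron factor, at 0.475 RPKM or less. In the vestibular nerve tumor with its high Isl1, markers of this list went both ways. Pou4f1 was at 0.0742 RPKM there, and Runx1, at 1.01 RPKM, was lower than in any other tumor. Nefh, at 4.86 RPKM, was higher than in any other tumor (1.72 or less), and Prph, at 12.6 RPKM, was second only to retro-orbital tumor 2. Cortical neuron markers were uneven, with Tbr1 at 9.17 RPKM and Lamp5 at 12.7 RPKM in meninges tumor 2 and at 0.762 and 2.14 RPKM or less in the others.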

How the data were processed

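RNA of 12 whole tumors was isolated (RiboPure), depleted of ribosomal RNA, made into stranded libraries (TruSeq) and sequenced as 1 pool on a HiSeq. STAR alignment to mm10, restriction to uniquely mapped reads and HTSeq counting of fragments over RefSeq genes were done by the authors, who deposited RPKM values, 1 per gene and tumor. The submitters' processing notes also name bcl2fastq 2.17, edgeR and limma. The transcript lengths behind RPKM are not given in the sources used here. RPKM values are not counts, so the tests were limma 3.58.1 (R 4.3.3) on log2(RPKM + 1). Its prior variance was trended and robust, genes needed 1 RPKM in 3 or more of the 10 tumors entered, and Benjamini-Hochberg adjustment was at 0.05. P-values measure the spread between tumors, some of which may share an animal.

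The total behind each tumor's values was worked out from the smallest RPKM steps, with GENCODE M21 lengths. Between 53.3% and 63.7% of low values came out whole within 0.05, so fragment numbers of single genes are estimates. The floor of a listed 0 is 3 fragments and covers counting error only.

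Correlations used 100000 permutations in Python 3.11.15 (numpy 2.4.6, pandas 2.3.3, scipy 1.17.1, matplotlib 3.10.9). The scripts were tested on simulated data.

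The members, role lists, marker lists and pairs were chosen with earlier results of these data known. Members given with all their values, or with the lowest, median and highest, were the 8 with the largest spread of location means, the 4 with the highest medians, the highest of each role list, and the pairs with the highest and lowest rho. Others were named for their role after their values were seen. Alternatives were another pseudocount, no filter, a stricter filter, quantile or equal-sum scaling, another prior, Pearson's r, 1 tumor per shared identifier, and leaving out each tumor.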

Additional observations from a re-analysis of the deposited data

Results flagged for a closer look

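Within the 4 retro-orbital tumors, 23 members could be screened for 1 tumor far from the other 3, by the gap to the nearest tumor divided by the range (compared with Dixon's 95% critical value). Of these, 4 were past the critical value. Members were screened only if they reached 1 RPKM in at least 1 of the 4 tumors, which favors members high in 1 tumor. Chgb, Isl1 and Th reached it only in retro-orbital tumor 3. The members also share the same tumors, so the count is a description and no number expected by chance is given. Tubb3 was high in retro-orbital tumor 2 (9.87 RPKM against 0.465 to 1.01, gap ratio 0.843). The other 3 were high in retro-orbital tumor 3: Chgb at 4.53 RPKM against 0.187 to 0.527 (0.836), Isl1 at 1.41 RPKM against 0.0672 to 0.162 (0.896), and Th at 1.04 RPKM against 0 in the others (1.0, which any value above 0 would give there, so that it measures no distance). The same tumor had the highest astrocyte marker sum of the 4, 370.6 RPKM against 3.31 to 32.1 in the others, and the largest fragment total, 57128403. The part of either in these values was not tested.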

How the results depend on the processing

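Under 16 alternatives to the location fit, the direction of differences was checked only for Syt1, Gap43, Chgb, Gria1, Gad1, Map2, Stmn3 and Syp. None reversed in meninges minus retro-orbital or in meninges minus cheek. These members were picked for the largest spread of location means in the same data, so the lack of reversals adds no support. Cheek minus retro-orbital differences and those of other members, Gria2 and Camk2a among them, were not checked. Under a constant, non-robust prior 1 member was called in the F test and 1 between meninges and cheek, Stmn3 in both. Over all genes, 19 and 22 were called under that prior, against 6 and 7 in the main fit. Leaving out each tumor in turn gave 0 to 2 called members in the F test and 0 to 1 between meninges and retro-orbital. It gave 0 to 0 between cheek and retro-orbital and 0 to 3 between meninges and cheek. The calls came without retro-orbital tumor 3 or cheek tumor 1, where more of all genes were called as well. Without cheek tumor 1, 198 genes were called in the F test and 527 between meninges and cheek. Without retro-orbital tumor 3 these were 56 and 65, with 41 between meninges and retro-orbital (3 in the main fit). Members whose values did not overlap numbered 2 to 5 for cheek above retro-orbital, 2 to 9 for the reverse and 0 to 2 for cheek above meninges when each tumor was left out, and 0, 5 and 1 after quantile normalization. The share over all genes was not counted for these sets, and leaving out a tumor can only keep or raise such a count. At a minimum of 5 RPKM, 11 members were present in at least 3 tumors. The share of member pairs at 0.7 or more was 9.69% to 16.9% when each tumor was left out (lowest without meninges tumor 3), 8.73% after quantile normalization and 15.6% with 1 tumor per shared identifier. For Pearson's r over 10 tumors, chosen after the data were seen, it was 24.3%, and 7.38% with location means subtracted. Of the 16 pairs, 1 passed by rho and 3 by r with 1 tumor per shared identifier, and 1 to 4 by rho and 2 to 7 by r when each tumor was left out. These sets hold fewer tumors, and the cause of the changed counts was not tested. No paired analysis was possible because the labels give no replicate numbers and, of the tumors with a shared identifier, only 1 pair (cheek tumor 1 and meninges tumor 1) spans 2 of the locations compared.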

Other observations

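A wider list of 62 other neuronal and synaptic genes showed where the cheek tumors were not low. Of these, 53 reached 1 RPKM in at least 3 tumors and 52 were tested, with 0 called by limma after adjustment and, at an unadjusted p under 0.05, 19 higher and 1 lower in meninges than in retro-orbital tumors (6.61% and 2.54% of all genes) and 20 higher and 5 lower in meninges than in cheek tumors (11.6% and 5.37%). Cheek tumors 2 and 3, with 9 and 11 of the 38 members at 1 RPKM, held the neurofilament gene Nefl at 411.7 and 334.8 RPKM, against 1.49 to 12.5 RPKM in the other 10 tumors, and Nefm at 91.7 and 67.6 RPKM, against 0.314 to 4.30. They were also the highest for the endosomal protein gene Nsg1 (62.8 and 65.6 RPKM, 7.64 or less elsewhere), for Nrgn, a postsynaptic calmodulin-binding protein (60.5 and 68.5 RPKM, 4.69 or less elsewhere), for the vesicle protein gene Sv2c (11.7 and 15 RPKM, 1.76 or less elsewhere), for the LIM-homeodomain factor gene Isl2 (18 and 15.2 RPKM, 3.61 or less elsewhere) and for the adhesion gene Ncam1 (27.6 and 29.9 RPKM, 7.84 or less elsewhere). These genes were named after their values were seen. The 2 tumors share the first part of their identifier, and whether they came from 1 animal is not stated. Stmn3, Chgb and Gria2 were at the low end of their ranges in both.

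Granule genes outside the 38 members also took 2 courses. Scg3, a granule adaptor, reached 30.5, 9.96 and 29.2 RPKM in the meninges tumors and 20.9 RPKM in retro-orbital tumor 3, and lay at 1.95 RPKM or less in the other retro-orbital and the cheek tumors. Cpe, a carboxypeptidase that trims peptide hormones, was highest in cheek tumors 2 and 3 (560.5 and 555.5 RPKM) and retro-orbital tumors 1 and 2 (367.1 and 391.3 RPKM), and at 68.5 to 108.5 RPKM in the meninges tumors. The convertase gene Pcsk1 was at 122.3 and 116.2 RPKM in cheek tumors 2 and 3 and at 94.3 RPKM in retro-orbital tumor 1. Of 23 neurogenic transcription factors 3 reached 1 RPKM in at least 3 tumors, Hand2, Gata3 and Eomes. Hand2, a sympathetic and mesenchymal factor, was at 80.5, 85.1 and 40.3 RPKM in the meninges tumors and 69.0 RPKM in retro-orbital tumor 4, and at 5.26 RPKM or less in the others. All 13 genes of the RE1 repressor complex were present, and Rest lay between 23.7 and 35.3 RPKM in all 12 tumors, a narrow range beside those of the members.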
